A study of Mus musculus with 35 samples.

Results

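The circadian clock genes are described here as 10 transcripts in mouse striatum, namely Arntl, Clock, Per1, Per2, Per3, Cry1, Cry2, Nr1d1, Nr1d2 and Dbp. They were taken from the count table by gene symbol, and the set was chosen with earlier results of these data known. They are 10 of 39017 genes in that table. All 10 passed the filter on low counts in every comparison. RNA-seq was performed on striata of 35 mice, with 1 library per mouse, at 21.71 to 23 weeks of age. The mice formed 4 genotype groups: 8 Htt+/+ Hdac2 WT mice, 7 HttQ111/+ Hdac2 WT mice, 9 Htt+/+ Hdac2 KO mice and 11 HttQ111/+ Hdac2 KO mice. HttQ111/+ mice carry a Huntington's disease knock-in allele of huntingtin with an expanded CAG repeat, here of 110 to 144 repeats against 7 in Htt+/+ mice. Hdac2 KO mice were homozygous for a floxed allele of Hdac2, a class I histone deacetylase, and carried the D9-Cre transgene, whose Ppp1r1b promoter drives Cre in medium-spiny neurons, the projection neurons of the striatum. Hdac2 WT mice lacked Cre and were homozygous for the floxed allele, apart from 2 Htt+/+ mice with 1 floxed allele, so that the Cre transgene and the deletion of Hdac2 cannot be told apart. The strain background was a mixture of C57BL/6 and 129, males outnumbered females (22 and 13), and no hour of death was given in the sources used here.

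The molecular clock is a feedback loop of transcription. CLOCK and ARNTL (BMAL1) pair and activate genes through E-boxes, among them the Per and Cry genes, whose proteins return to block the pair. The nuclear receptors NR1D1 and NR1D2 (REV-ERB alpha and beta) repress Arntl through ROR elements, and DBP drives genes with D-boxes. Because Dbp and Nr1d1 are activated by the loop while Arntl is repressed by NR1D1, their transcripts run in opposite phases over the day, and the ratio of Dbp to Arntl within a sample can be read as a measure of phase. The striatum holds such a clock in its own cells.

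Libraries held between 50970712 and 77867348 gene counts, and the member with the fewest counts, Cry1, had 1246 to 3199 counts per library. Levels are given as CPM, a count scaled to a common library total. Hdac2, the targeted gene, ranged from 95.6 to 111 CPM over the 15 Hdac2 WT libraries and from 89.4 to 101 CPM over the 20 Hdac2 KO libraries, with overlap between them. The floxed allele loses only some exons, so a count over the whole gene does not measure the deletion. The study reported fewer reads over those exons, and loss of HDAC2 protein, in Hdac2 KO striata. The counts cover the whole gene and every cell type of the striatum, and in these bulk samples fewer cells of a type cannot be told apart from less RNA per cell. The 7 markers of medium-spiny neurons were measured in every group, and their summed level ran from 5382 to 6118 CPM in Htt+/+ Hdac2 WT, from 3673 to 5221 CPM in HttQ111/+ Hdac2 WT, from 5485 to 6399 CPM in Htt+/+ Hdac2 KO and from 4299 to 5724 CPM in HttQ111/+ Hdac2 KO libraries. RNA was extracted on 6 dates that nearly followed Hdac2 genotype, and mouse IDs opened with 1 of 3 letters (A, V or Z, with 8, 16 and 11 libraries), called ID series here because the labels do not say what the letter stands for. Every HttQ111/+ mouse of series V had more CAG repeats than any HttQ111/+ mouse of series A or Z. In HttQ111/+ mice, series V and a longer repeat therefore cannot be told apart.

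RefSeq promoter windows (250 bases before to 50 after a start, GRCm38.p6) were matched by symbol for 9 of the 10 genes, all but Per2. The following stretches are shown because they hold matches to motifs of the loop described above. The windows of Clock, Dbp and Nr1d2 held no match. The motif is in capitals and every stretch is written 5′ to 3′ along the strand of its gene.
Cry1, chr10:85185089-85185153, minus strand: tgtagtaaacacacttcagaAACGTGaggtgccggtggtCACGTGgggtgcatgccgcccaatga
Cry2, chr2:92434210-92434255, minus strand: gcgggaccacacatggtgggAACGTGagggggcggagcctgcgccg
Per1, chr11:69098763-69098947, plus strand: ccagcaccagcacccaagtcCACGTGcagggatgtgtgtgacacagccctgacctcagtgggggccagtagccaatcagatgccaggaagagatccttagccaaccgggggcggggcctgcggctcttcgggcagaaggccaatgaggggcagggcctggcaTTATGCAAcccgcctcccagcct
Nr1d1, chr11:98775380-98775425, minus strand: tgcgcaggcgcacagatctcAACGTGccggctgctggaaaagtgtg
Per3, chr4:151044796-151044890, minus strand: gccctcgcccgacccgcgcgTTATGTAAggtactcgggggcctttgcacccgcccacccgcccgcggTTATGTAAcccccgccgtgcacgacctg
Arntl, chr7:113207495-113207521, plus strand: ggtcggaaagTAGGTTAgtggtgcgac
Arntl, chr7:113207531-113207557, plus strand: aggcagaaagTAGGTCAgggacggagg
The E-box CACGTG was found in the windows of Per1 and Cry1 and in 7.15% of 32851 windows of the genome. The variant CACGTT, written AACGTG where it lies on the opposite strand, was found in Cry1, Cry2 and Nr1d1 and in 4.68% of all windows. The D-box TTATGTAA occurred in the Per3 window, in 2 copies, and in 0.938% of all windows, and TTATGCAA occurred in Per1 and in 0.743%. The ROR elements TAGGTTA and TAGGTCA both lay in an annotated exon of Arntl, and were held by 1.44% and 2.61% of all windows. The cAMP response element TGACGTCA was in none of the windows of these genes and in 1.79% of all windows. Both strands were searched and no motifs overlapped in these stretches. Such a match describes letters only.

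Levels were compared between genes after division by exon length, although counts covered whole gene intervals, introns included. This division does not correct for reads from introns, which can differ between genes. In Htt+/+ Hdac2 WT striatum Dbp was the highest at 39.1 ± 8.63 CPM per kb of exon (SD, n = 8), followed by Nr1d1 at 36.5 ± 7.60 and Nr1d2 at 33.4 ± 2.89 CPM per kb. Per1 (27.4 ± 5.46) and Cry2 (26.8 ± 1.77) came next, then Per2 (11.7 ± 2.43), Cry1 (11.2 ± 1.59) and Clock (9.26 ± 0.643), and Arntl (6.60 ± 1.62) and Per3 (6.36 ± 0.907) were the lowest. The ranges of neighbours in this order overlapped except at 1 step, between Cry2 and Per2, whose ranges were 24.1 to 29.4 and 8.05 to 15.6 CPM per kb. The genes also differed in how much they varied between mice of 1 genotype. The SD of log2 CPM within groups was 0.372 for Dbp, 0.361 for Per1, 0.347 for Per2, 0.329 for Arntl and 0.300 for Nr1d1, against a median of 0.0961 over 6143 genes with a mean log2 CPM of at least 5. Cry2 stood at 0.0818 and Clock at 0.114, so that these 2 were among the steadiest of the clock genes. The plot of CPM by genotype shows every mouse.

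**Figure D1:**
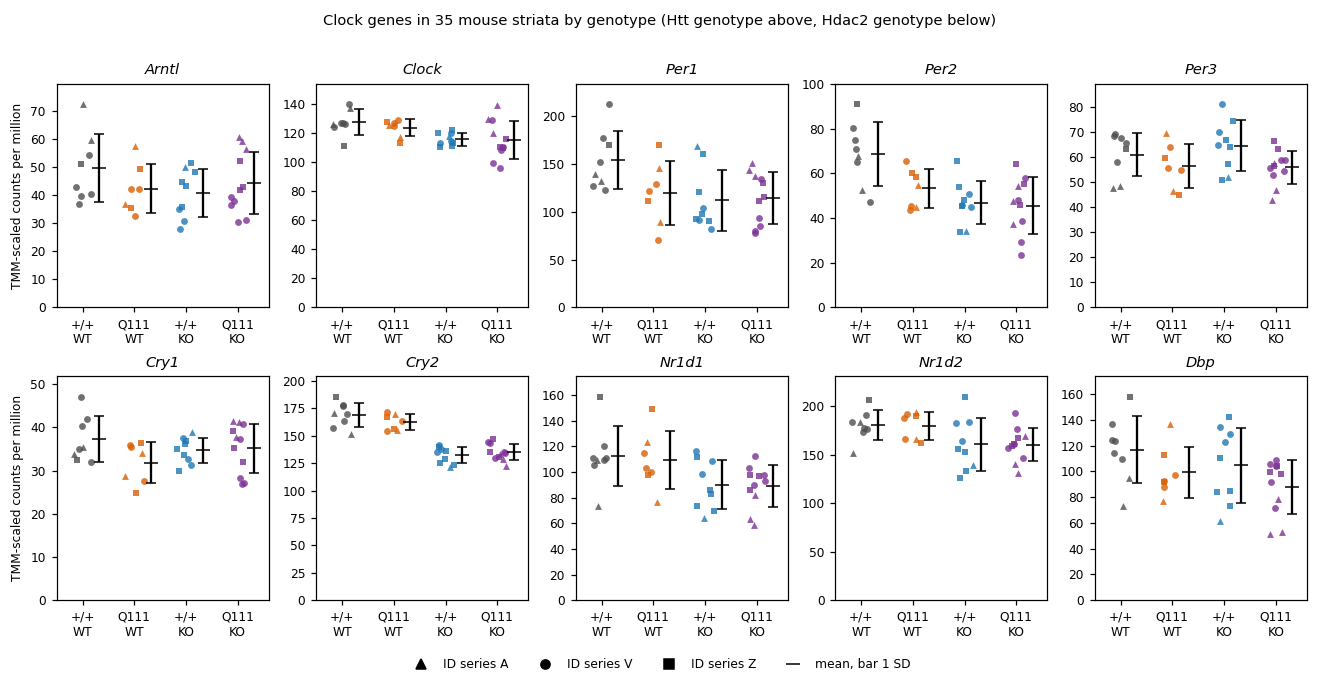
CPM of the 10 clock genes (y axes, each starting at 0) in the 4 genotype groups (x axis), with 1 point per mouse, a bar for the group mean and an error bar of 1 SD. Cry2 is the gene whose Hdac2 KO mice (122.0 to 147 CPM) all lie below the Hdac2 WT mice (152.0 to 186 CPM).

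Whether loss of neuronal Hdac2 changes the striatal transcriptome was asked separately in Htt+/+ and in HttQ111/+ mice. Cry2, which encodes a cryptochrome that represses the CLOCK and ARNTL pair, was lower in Hdac2 KO striatum on both backgrounds. Per2, a period gene, fell in HttQ111/+ mice, and Arntl, the partner of CLOCK, fell in Htt+/+ mice. In Htt+/+ mice 2 of the 10 genes had an adjusted p under 0.05 (edgeR quasi-likelihood test, Benjamini-Hochberg over 17126 genes), both lower, where 17.8% of all genes did and 8.79% were lower. In HttQ111/+ mice 2 of 10 did, both lower, where 16.5% of all genes did and 8.86% were lower, so that the share of clock genes was near that of the genome. The median log2 fold change of the 10 was -0.084 in Htt+/+ and -0.081 in HttQ111/+ mice, against -0.0014 and -0.0044 over all genes tested. Markers of tissue next to the striatum were measured in the same contrasts. Of 4 choroid plexus markers 3 were tested, with a median log2 fold change of -1.04 in Htt+/+ mice and -0.12 in HttQ111/+ mice, and 1 of them, Ttr, fell in Htt+/+ mice (-3.12 ± 1.05, adjusted p = 0.0359, edgeR). Their summed level ran from 1.62 to 181 CPM in Htt+/+ Hdac2 WT and from 3.16 to 18.8 CPM in Htt+/+ Hdac2 KO libraries, and from 7.48 to 75.1 CPM and 2.31 to 116 CPM in the HttQ111/+ groups with Hdac2 WT and KO. The 4 cortical neuron markers had medians of -0.63 and 0.13, with 0 called, and summed to between 5.45 and 411 CPM in HttQ111/+ Hdac2 WT (median 22.1) and to between 3.38 and 160 CPM over the other 3 groups. Of 5 markers each of astrocytes, oligodendrocytes, microglia and endothelium, 0 were called on either background. Of the 7 medium-spiny neuron markers, 2 rose and 1 fell with Hdac2 KO in Htt+/+ mice, and 2 rose in HttQ111/+ mice. The part of these markers in the clock gene results was not tested.

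Cry2 (ENSMUSG00000068742, chr2:92403646-92434036) was lowest, median and highest at 152.0, 170.2 and 186 CPM in Htt+/+ Hdac2 WT mice and at 122.0, 136 and 142 CPM in Htt+/+ Hdac2 KO mice. On the HttQ111/+ background the same values were 154, 163 and 172 CPM in Hdac2 WT mice and 122, 134 and 147 CPM in Hdac2 KO mice. No Hdac2 KO mouse reached the lowest Hdac2 WT mouse on either background. Complete separation with the KO lower was found for 2.29% of genes in Htt+/+ mice and for 0.600% in HttQ111/+ mice. The log2 fold change of Cry2 was -0.28 ± 0.0408 (SE; adjusted p = 8.82e-06, edgeR) in Htt+/+ mice and -0.25 ± 0.0369 (adjusted p = 1.25e-05) in HttQ111/+ mice. The 2 effects were not distinguished by the interaction of both genotypes (0.036 ± 0.0490, adjusted p = 0.966). In 17 alternative fits the value ran from -0.49 to -0.27 in Htt+/+ and from -0.41 to -0.24 in HttQ111/+ mice, with an adjusted p of 0.00135 or less in each. Both lowest values came from the fit in which extraction date replaced the surrogate variables. The same held when any 1 library was left out, with values from -0.36 to -0.26 and from -0.28 to -0.22. Only 2 Hdac2 KO libraries shared an extraction date with Hdac2 WT libraries. On 25 May the KO library was at 122 CPM and the 5 WT libraries at 158 to 186 CPM. On 27 May the KO library was at 124 CPM and the 5 WT libraries at 154 to 177 CPM. An antisense gene, D930015M05Rik, overlaps 77.1% of Cry2, and whether strand was used in counting was not stated. It held 0 to 14 counts per library, against 6027 to 10583 for Cry2.

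Per2 (ENSMUSG00000055866, chr1:91415984-91459330), whose transcript is induced both by the loop and by outside signals, had a lowest, median and highest value of 47.1, 69.4 and 91.1 CPM in Htt+/+ Hdac2 WT mice and of 33.6, 45.7 and 65.5 CPM in Htt+/+ Hdac2 KO mice. In HttQ111/+ mice it was 43.5, 54.9 and 65.5 CPM with Hdac2 WT and 23.3, 47.7 and 64.4 CPM with Hdac2 KO. The groups overlapped on both backgrounds, although all 9 Htt+/+ Hdac2 KO mice were under the median of their Hdac2 WT group. Per2 fell in HttQ111/+ mice by 0.46 ± 0.130 on the log2 scale (SE; adjusted p = 0.0125, edgeR), and the value in Htt+/+ mice was -0.33 ± 0.148 (adjusted p = 0.136). The interaction did not separate the backgrounds (-0.10 ± 0.173, adjusted p = 0.978), and over both backgrounds Per2 fell by 0.40 ± 0.108 (adjusted p = 0.00625). The call in HttQ111/+ mice was lost when any 1 of 14 libraries was left out, namely replicates 4, 8 and 9 of Htt+/+ Hdac2 WT, 2, 3, 6 and 7 of HttQ111/+ Hdac2 WT, 1 and 7 of Htt+/+ Hdac2 KO and 1, 5, 6, 10 and 11 of HttQ111/+ Hdac2 KO (lowest and highest adjusted p 0.0518 and 0.311). The background on which Per2 was called changed with the surrogate variables, fitted covariates for variation that the groups do not account for. Without them the fold change was -0.55 (adjusted p = 0.00706) in Htt+/+ mice and -0.23 (adjusted p = 0.353) in HttQ111/+ mice.

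Arntl (ENSMUSG00000055116, chr7:113207465-113314122) ranged from 36.8 over a median of 47.1 to 72.5 CPM in Htt+/+ Hdac2 WT mice and from 27.9 over 43.3 to 51.4 CPM in Htt+/+ Hdac2 KO mice. In HttQ111/+ mice it ranged from 32.6 over 42.1 to 57.4 CPM with Hdac2 WT and from 30.5 over 41.7 to 60.8 CPM with Hdac2 KO. The groups overlapped over most of their range. In Htt+/+ mice Arntl fell by 0.39 ± 0.114 on the log2 scale (SE; adjusted p = 0.0158, edgeR), and in HttQ111/+ mice the value was -0.15 ± 0.0970 (adjusted p = 0.334). The difference between these effects was 0.23 ± 0.131 (adjusted p = 0.882). The fall in Htt+/+ mice kept its call in 28 of the 35 fits that left out 1 library and lost it in 7. Without Htt+/+ Hdac2 WT replicate 2 it was -0.21 (adjusted p = 0.262), without Htt+/+ Hdac2 KO replicate 7 it was -0.24 (adjusted p = 0.157), and the adjusted p was 0.0553, 0.0503, 0.0510, 0.0921 and 0.112 without Htt+/+ Hdac2 WT replicates 8 and 9 and HttQ111/+ Hdac2 KO replicates 5, 6 and 10. The call was also lost without covariates (-0.29, adjusted p = 0.168), with sex alone (-0.30, adjusted p = 0.146), with the replicate block (-0.19, adjusted p = 0.177), with all genes of at least 1 count (-0.30, adjusted p = 0.125), without ID series A (-0.27, adjusted p = 0.154) and without the mice with 1 floxed allele (-0.17, adjusted p = 0.372). The sign turned when extraction date took the place of the surrogate variables (0.16, adjusted p = 0.724), and dates nearly follow Hdac2 genotype.

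Clock (ENSMUSG00000029238, chr5:76212177-76304548) was 111 to 140 CPM in Htt+/+ Hdac2 WT, 113 to 129 CPM in HttQ111/+ Hdac2 WT, 110 to 122 CPM in Htt+/+ Hdac2 KO and 95.7 to 139 CPM in HttQ111/+ Hdac2 KO mice, with medians of 126, 125, 114 and 110 CPM. Both Hdac2 KO medians were the lower, and the groups overlapped. Its log2 fold change with Hdac2 KO was -0.085 ± 0.0362 in Htt+/+ and -0.077 ± 0.0311 in HttQ111/+ mice (adjusted p = 0.108 and 0.0934, edgeR). Averaged over both backgrounds, 4 of the 10 genes fell with Hdac2 KO (25.0% of all genes were called, 12.1% lower): Per2, Arntl (-0.26 ± 0.0826, adjusted p = 0.0195), Clock (-0.075 ± 0.0265, adjusted p = 0.0348) and Cry2 (-0.26 ± 0.0307, adjusted p = 1.21e-07). Cry2 kept its call in that average when any 1 library was left out. Arntl, Clock and Per2 lost it in 8, 11 and 7 of the 35 such fits.

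The other 6 genes had no adjusted p under 0.05 for Hdac2 KO on either background. Per1, the period gene that also responds to neuronal activity, was 122, 146 and 213 CPM (lowest, median, highest) in Htt+/+ Hdac2 WT and 81.7, 97.2 and 169 CPM in Htt+/+ Hdac2 KO mice. In HttQ111/+ mice it was 70.0, 122 and 170 CPM with Hdac2 WT and 78.1, 116 and 151 CPM with Hdac2 KO. Although 7 of 9 Htt+/+ Hdac2 KO mice lay below every Htt+/+ Hdac2 WT mouse, the fitted log2 fold change was -0.084 ± 0.102 (adjusted p = 0.650, edgeR). Without surrogate variables it was -0.47 (adjusted p = 0.0332), and without ID series A it was -0.46 (adjusted p = 0.00723). Nr1d1 ran from 73.1 to 159 CPM and from 76.9 to 150 CPM in the Hdac2 WT groups (Htt+/+, then HttQ111/+), and from 64.3 to 116 CPM and 59.0 to 112 CPM in the Hdac2 KO groups. Its log2 fold changes were -0.12 ± 0.106 and -0.073 ± 0.0940 (adjusted p = 0.489 and 0.679). Nr1d1 was called in Htt+/+ mice when replicate 2 of Htt+/+ Hdac2 WT was left out (-0.37, adjusted p = 0.0171). Its call also depended on the covariates and libraries used. In 17 alternative fits it was called 5 times in Htt+/+ mice and 2 times in HttQ111/+ mice. With ID series in place of surrogate variables it was -0.37 in Htt+/+ mice (adjusted p = 0.0193, edgeR). The output gene Dbp ran from 73.1 to 158 CPM and from 76.7 to 137 CPM in the Hdac2 WT groups, and from 61.3 to 142 CPM and 51.7 to 109 CPM in the Hdac2 KO groups, with values of -0.056 ± 0.147 and -0.16 ± 0.133. Nr1d2 (126 to 210 CPM over all mice), Per3 (42.9 to 81.3 CPM) and Cry1 (24.9 to 47.1 CPM) had log2 fold changes between -0.086 and 0.17. Per3 lies wholly within Camta1 on the same strand, so its counts can hold reads of Camta1. Nr1d1 and Dbp share 472 and 430 bases with Thra and Sphk2 on the opposite strand. Counts of Nr1d1 and Dbp could hold reads of those genes only if strand was not used in counting, which was not stated. The antisense gene over 77.1% of Cry2 held only 0 to 14 counts per library. Camta1 and Thra fell with Hdac2 KO by 0.12 and 0.11 on the log2 scale in Htt+/+ mice (adjusted p = 0.00949 and 0.0109).

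**Figure D2:**
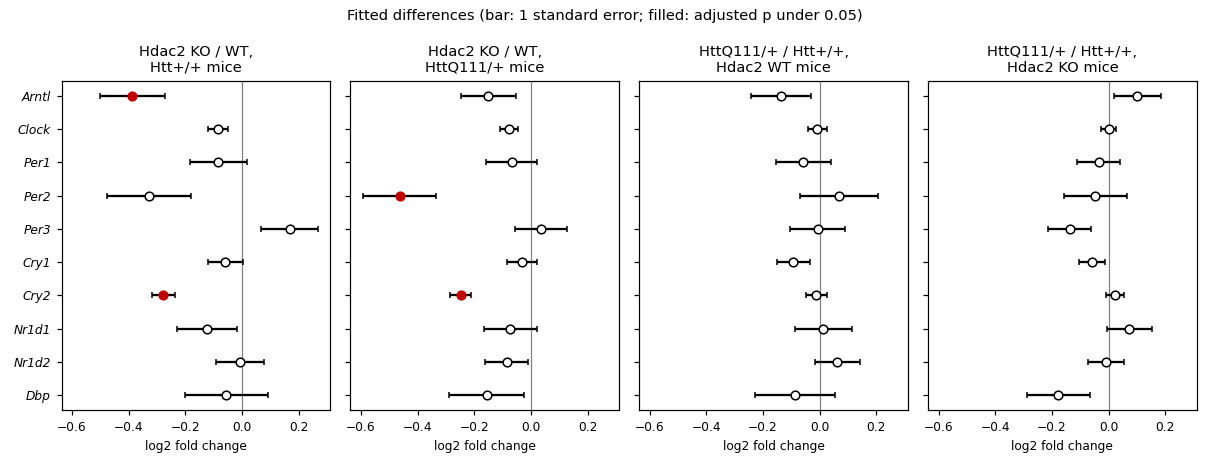
Fitted log2 fold changes (x axes) of the 10 clock genes in the 4 contrasts, 1 panel each; bars are 1 SE and filled points have an adjusted p under 0.05. Filled points are Arntl and Cry2 for Hdac2 KO in Htt+/+ mice and Per2 and Cry2 for Hdac2 KO in HttQ111/+ mice.

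The effect of the HttQ111 allele was asked in Hdac2 WT and in Hdac2 KO mice. None of the 10 genes had an adjusted p under 0.05 with edgeR in either, and none an unadjusted p under 0.05, where 10.9% and 7.52% of all genes had one. DESeq2 and limma-voom also called 0. Over all genes 0.403% were called in Hdac2 WT and 0.00584% in Hdac2 KO mice, so that few calls were made anywhere. Of the 7 medium-spiny neuron markers, 4 fell in Hdac2 WT mice (median log2 fold change -0.26) and 0 were called in Hdac2 KO mice (median -0.14). In Hdac2 KO mice 6 of the 7 still had an unadjusted p under 0.05 (edgeR). Averaged over both Hdac2 backgrounds 6 of the 7 were called, all lower. In Hdac2 WT mice the log2 fold changes of the clock genes ran from -0.14 for Arntl to 0.067 for Per2, and in Hdac2 KO mice from -0.18 for Dbp to 0.10 for Arntl. Cry2 was at -0.011 ± 0.0384 and 0.022 ± 0.0314, and Clock at -0.0085 ± 0.0337 and 0.0003 ± 0.0268. Dbp had wider errors, at -0.087 ± 0.141 and -0.18 ± 0.111. Averaged over both Hdac2 backgrounds none was called (1.27% of all genes were), and only Cry1 had an unadjusted p under 0.05 (-0.078 ± 0.0376, p = 0.0474, adjusted p = 0.400, edgeR), as had 12.3% of all genes. No clock gene was called for the interaction (0.00577% of all genes), and none had an unadjusted p under 0.05 there (5.63% of all genes). Among the alternatives, Per1 was called in Hdac2 WT mice without ID series A (-0.39, adjusted p = 0.0434).

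Of 15 further genes of the loop, 1 rose and 2 fell with Hdac2 KO in Htt+/+ mice, where 17.8% of all genes were called. Arntl2, a paralogue of Arntl, rose from 2.71 ± 0.576 CPM (SD, n = 8) to 5.40 ± 0.506 CPM (n = 9) in Htt+/+ mice and from 3.08 ± 0.736 CPM (n = 7) to 4.60 ± 0.813 CPM (n = 11) in HttQ111/+ mice. Its log2 fold changes were 0.95 ± 0.151 and 0.71 ± 0.136 (adjusted p = 3.03e-05 and 0.000369, edgeR). Btrc, which encodes a ubiquitin ligase subunit that targets period proteins, fell by 0.10 ± 0.0276 and 0.11 ± 0.0247. Npas2, which can stand in for Clock, fell in Htt+/+ mice by 0.18 ± 0.0647 (adjusted p = 0.0472). Of 8 clock output genes, 1 fell in Htt+/+ mice and 2 in HttQ111/+ mice, where 17.8% and 16.5% of all genes were called. These counts were unstable, at 1 to 4 and 2 to 4 with any 1 library left out, differing from 1 in 20 of the 35 fits for Htt+/+ mice. In Htt+/+ mice 4 output genes were called without covariates and with ID series, 5 with only the libraries of the 2 groups, and 2 with DESeq2 and with limma-voom. Tef, a relative of Dbp, fell by 0.25 ± 0.0621 and 0.27 ± 0.0557, and Hlf, of the same family, fell in HttQ111/+ mice by 0.22 ± 0.0640 (adjusted p = 0.0144). For HttQ111, edgeR, DESeq2 and limma-voom called 0 genes of either list in either contrast, and at most 1 gene of a list had an unadjusted p under 0.05 in each.

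How the clock stood in each mouse was described with Dbp against Arntl. Across the 35 libraries, with group means removed, Dbp was high where Arntl was low (Pearson r = -0.715, two-sided permutation p = 2e-05 over 100000 draws within groups; Spearman rho = -0.717, permutation p = 3e-05). The draws exchanged libraries across ID series, so these p-values do not set differences between series apart. Without the 2 libraries farthest from the median of Arntl r was -0.702, and leaving out any 1 library gave r between -0.749 and -0.689. The same sign was found within each genotype group, with r of -0.587 (n = 8, exact permutation p = 0.125) in Htt+/+ Hdac2 WT, -0.693 (n = 7, exact permutation p = 0.0855) in HttQ111/+ Hdac2 WT, -0.860 (n = 9, exact permutation p = 0.00480) in Htt+/+ Hdac2 KO and -0.697 (n = 11, permutation p = 0.0168) in HttQ111/+ Hdac2 KO mice. After Benjamini-Hochberg adjustment over the 14 subsets tested, these became 0.170, 0.150, 0.0293 and 0.0470. Males (r = -0.719, adjusted permutation p = 0.00294) and females (r = -0.683, adjusted permutation p = 0.0567) had the same sign. Within ID series V and Z r was -0.627 and -0.774 (adjusted permutation p = 0.0293 and 0.0413). Within series A, with 8 libraries, r was -0.461 (exact permutation p = 0.875 over 24 arrangements, smallest possible p 0.0417) and was 0.691 without the 2 farthest libraries (6 libraries, exact permutation p = 0.333), too few to test the relation there. Without series A it was -0.547 over 27 libraries (permutation p = 0.0121), and with series means removed -0.657 over all 35. Within the 5 extraction dates with 6 libraries r ran from -0.919 to -0.098, and no adjusted exact permutation p was under 0.05. These dates allowed 12 to 120 arrangements each, with a smallest possible p of 0.0833 on 2 of them.

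**Figure D3:**
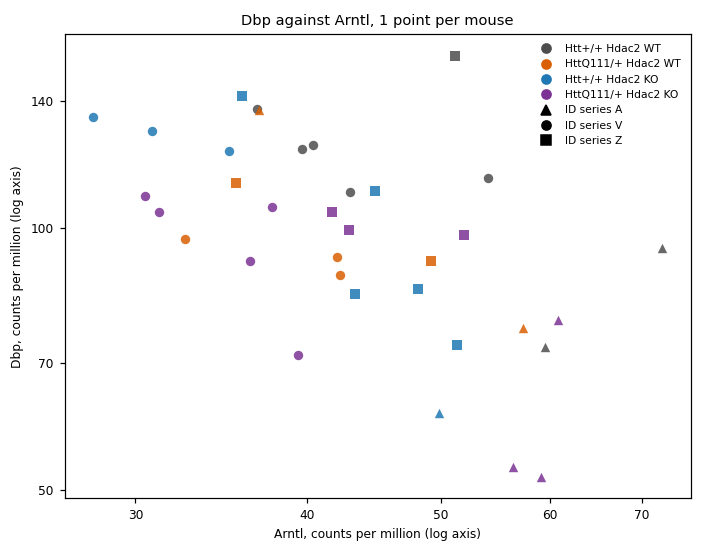
Dbp against Arntl in CPM on log axes, 1 point per mouse, with genotype groups and ID series marked. Dbp runs from 51.7 to 158 CPM and Arntl from 27.9 to 72.5 CPM, and r is -0.563 over the 35 libraries as plotted, with group means left in.

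The ratio log2(Dbp/Arntl) ran from -0.19 to 2.26 with a median of 1.30, so that Dbp stood between 0.875 and 4.80 times the CPM of Arntl. The libraries formed a continuous series, in which the largest gap between neighbours was 0.384. Group means were 1.24 ± 0.60 (SD, n = 8) in Htt+/+ Hdac2 WT, 1.24 ± 0.51 (n = 7) in HttQ111/+ Hdac2 WT, 1.34 ± 0.72 (n = 9) in Htt+/+ Hdac2 KO and 0.98 ± 0.69 (n = 11) in HttQ111/+ Hdac2 KO mice. The differences between them were 0.097 and -0.25 for Hdac2 KO (in Htt+/+, then HttQ111/+ mice) and -0.0027 and -0.35 for HttQ111 (in Hdac2 WT, then Hdac2 KO mice), each less than the pooled SD within groups (0.56 to 0.71). ID series spread further apart. The median ratio was 0.33 in series A, 1.60 in series V and 1.21 in series Z, and 7 of the 8 libraries with the lowest ratio belonged to series A. The ratio was computed from 2 of the genes described, so it was given no test.

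The remaining clock genes followed this order to different degrees. Correlation with the ratio over the 35 libraries was 0.854 for Nr1d1, 0.844 for Per3, 0.704 for Cry2 and 0.679 for Nr1d2. Clock stood at -0.604 and Cry1 at -0.495. Per1 (-0.271) and Per2 (0.015) did not follow it. Genes near the ratio thus included both repressors that act on Arntl, and the plot of libraries in the order of the ratio shows them rising together as Clock declines. Arntl falls and Dbp rises along this order because they make up the ratio. An r with the ratio therefore also reflects a gene's r with Dbp and with Arntl.

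**Figure D4:**
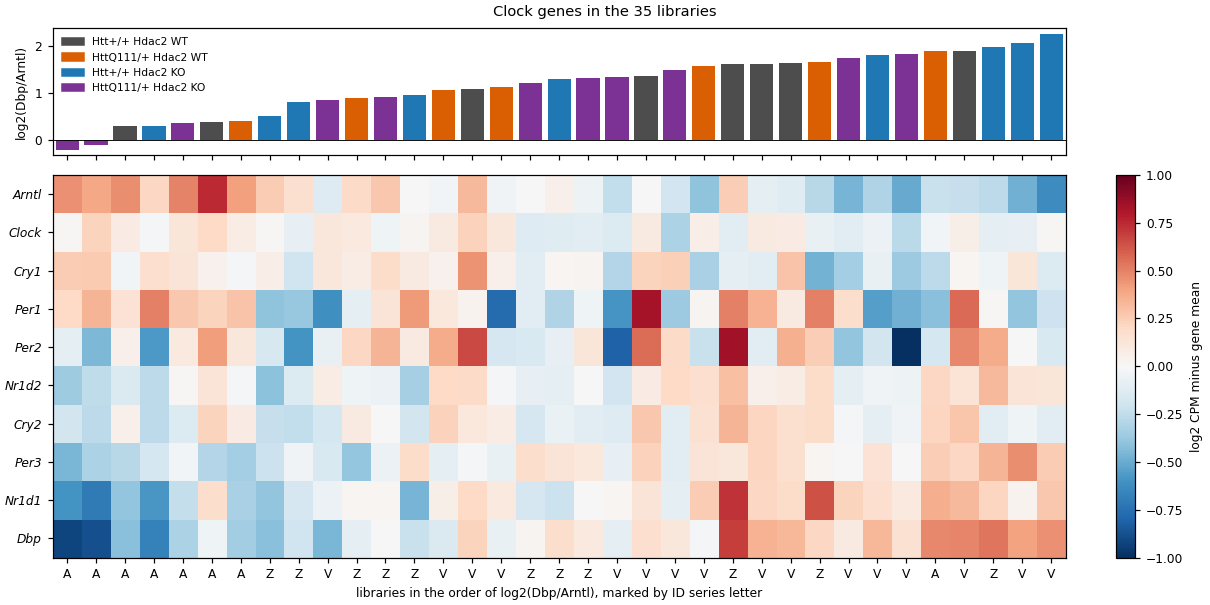
Clock genes (rows) in the 35 libraries (columns, in the order of log2(Dbp/Arntl), with the ID series letter below); colour is log2 CPM minus the mean of the gene, and the bars above give the ratio, coloured by genotype group. Nr1d1 and Per3 run from low on the left to high on the right, while Per1 and Per2 show no such order. Dbp rises and Arntl falls because they make up the ratio. Most A libraries are at the left.

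All 45 pairs of clock genes were compared in the same way, and 27 had an adjusted permutation p under 0.05, 15 with positive and 12 with negative r. The sign was the same within all 3 ID series for 21 of these 27. The pair with the highest r was Dbp and Nr1d1 (r = 0.887, rho = 0.866, adjusted permutation p = 7.5e-05), and the pair with the lowest was Arntl and Per3 (r = -0.746, rho = -0.714, adjusted permutation p = 7.5e-05). The unadjusted p of 1e-05 behind both is the smallest that these draws can give. Both REV-ERB genes varied together (r = 0.738), although in series V their r was -0.298. Arntl and Clock, which encode the activating pair, had r = 0.493 (adjusted permutation p = 0.0112). Cry1 and Cry2 differed in their partners. Cry1 was positive with Arntl (0.494), Clock (0.520) and Per2 (0.481), whereas Cry2 was positive with Dbp (0.764), Nr1d1 (0.745), Per3 (0.624) and Nr1d2 (0.590), and their own r of -0.375 did not pass (adjusted permutation p = 0.0504). Per1 had no pair of 9 with an adjusted p under 0.05, and Per2 had 2, with Cry1 and with Nr1d2 (0.418). These libraries share tissue, kit and sequencing, and the hour of death of the mice was not known.

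**Figure D5:**
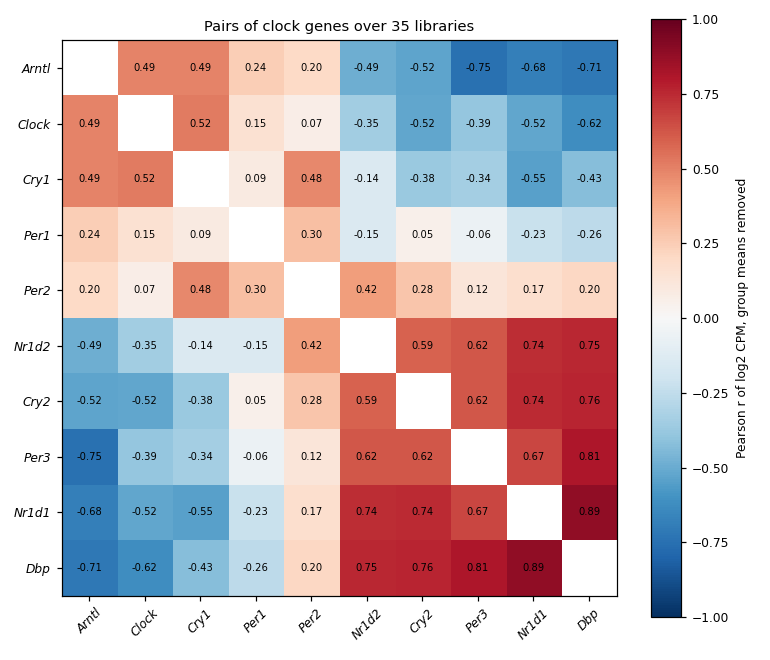
Pearson r of log2 CPM, group means removed, for the 45 pairs of clock genes over 35 libraries (colour from -1 to 1). Dbp, Nr1d1, Nr1d2, Per3 and Cry2 form a block of positive r, Arntl, Clock and Cry1 are negative against most of them, and Per1 has r between -0.258 and 0.302 with every other gene.

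What else separated the libraries was tested beside genotype, without surrogate variables. ID series was associated with 4 of the 10 genes (edgeR, where 20.5% of all genes were called): Arntl (adjusted p = 1.19e-05), Nr1d1 (0.0109), Dbp (0.0189) and Per3 (0.0431). Arntl had medians of 58.3, 37.2 and 44.8 CPM in series A, V and Z. Dbp had medians of 74.9, 110 and 99.6 CPM and Per3 of 48.2, 61.6 and 63.3 CPM. Nr1d1 ran from 59.0 to 124 CPM in series A, from 90.1 to 120 CPM in series V and from 69.6 to 159 CPM in series Z. By their medians these 3 genes, opposite in phase to Arntl, were lowest in series A. All 3 series were present in each genotype group, but not in equal shares. Series A, V and Z had 2, 5 and 1 libraries in Htt+/+ Hdac2 WT and 1, 3 and 5 in Htt+/+ Hdac2 KO. They had 2, 3 and 2 libraries in HttQ111/+ Hdac2 WT and 3, 5 and 3 in HttQ111/+ Hdac2 KO. No clock gene was called for sex (0 with an unadjusted p under 0.05 against 8.32% of all genes, 0.0807% of all genes called) or for extraction date (3 with an unadjusted p under 0.05 against 13.3% of all genes, lowest adjusted p 0.0619 for Arntl, 0.715% of all genes called). These tests were run with edgeR alone. The 9 surrogate variables took between 50.8% (Nr1d2) and 85.1% (Clock) of the variance of the clock genes within groups, with 29% of the degrees of freedom.

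Beyond the 10 genes, those most like the ratio were sought among 13662 genes by Pearson r over the 35 libraries, where the median absolute r was 0.197 and the 99th percentile 0.612. The 8 highest were Gm129 (0.856), Efna3 (0.809), Rsad1 (0.807), Bhlhe41 (0.795), Ydjc (0.789), Slc45a1 (0.778), Usp35 (0.740) and Zfp346 (0.734). Gm129, now named Ciart, and Bhlhe41 both encode repressors of the CLOCK and ARNTL pair, and Gm129 ran from 5.43 to 27.9 CPM. The 8 lowest were Leo1 (-0.813), Pdp1 (-0.762), Sphk2 (-0.735), A830080D01Rik (-0.727), B230354K17Rik (-0.719), Cdr2 (-0.700), Bank1 (-0.699) and Smarcc1 (-0.694). Sphk2 overlaps the end of Dbp on the opposite strand and had r = -0.646 with Dbp itself. Pdp1, which encodes a phosphatase that activates pyruvate dehydrogenase, ran from 131 to 379 CPM. Of the output genes, Tef (0.713), Usp2 (0.709) and Hlf (0.619) were positive and Nfil3, which competes with DBP at D-boxes, was at -0.689.

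Per1 followed another set of genes. Its 3 nearest were Nr4a1 (r = 0.905), Slc25a25 (0.902) and Egr2 (0.896). All 8 activity-dependent genes listed were positive with it (0.693 for Npas4 to 0.905 for Nr4a1), and Egr2 itself ran from 1.74 to 54.6 CPM. Of 6 glucocorticoid targets the highest absolute r with Per1 was 0.491, for Errfi1. In Htt+/+ mice 1 of the 8 activity-dependent genes fell with Hdac2 KO, and 1 of the 6 glucocorticoid targets rose, with 0 of 8 and 2 of 6 called in HttQ111/+ mice, beside 17.8% and 16.5% of all genes. For HttQ111 edgeR called 0 of both lists. In Hdac2 WT mice 2 of the 8 activity-dependent genes had an unadjusted p under 0.05 (edgeR), where 10.9% of all genes had one. All 8 had a negative log2 fold change there (median -0.31). In Hdac2 KO mice the median was -0.032 and 3 of the 8 were positive. The 3 genes nearest to Clock were Lmbrd2 (0.914), Rps6ka3 (0.900) and Vps13a (0.877). These r are descriptions without a test, over libraries that share tissue, kit and sequencing.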

How the data were processed

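Striatal RNA of 35 mice was sequenced, 1 library per mouse, and the deposited values are raw counts per gene, which the authors made by aligning reads to GRCm38 with GSNAP and counting unique alignments over whole gene intervals, introns included, with bedtools. No count was normalized before deposit. Use of strand in counting was not stated. Of 39109 entries, those of 92 spike-in controls, of 2 rRNA genes of the mitochondrion and of 6152 short genes (span up to 250 nt) were dropped. A gene was tested where every library of at least 1 group compared had 6 counts or more. Counts were scaled by TMM and fitted for all 35 libraries with edgeR 4.0.16 (R 4.3.3) and 9 surrogate variables from sva 3.50.0, after the study's own design, with the quasi-likelihood F test and Benjamini-Hochberg adjustment over all genes tested. Groups came from the sample labels. Alternatives were DESeq2 1.42.0, limma-voom 3.58.1, other covariates, filters, scalings and sets of libraries. CPM use TMM-scaled library sizes, and log2 CPM a prior count of 2. Correlations were computed in Python 3.11.15 with numpy 2.4.6, on log2 CPM with group means removed, with exact permutations or 100000 draws within groups. The edgeR fit was tested on simulated data.

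The 10 genes and all gene lists were chosen with earlier results of these data known. Named outside the 10 were genes of the lists of other clock genes and clock output genes with an adjusted p under 0.05 in a contrast, the 8 genes with the highest and the 8 with the lowest r with log2(Dbp/Arntl), the 3 nearest to Per1 and to Clock, the glucocorticoid target with the highest absolute r with Per1, and Hdac2. Genes overlapping a member, values of output genes beside the ratio, and the extremes of the activity-dependent list were added after their values were seen. A gene of these lists is not reported here. The labels name separate mice, and p-values measure the spread between them.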

Additional observations from a re-analysis of the deposited data

How the results depend on the processing

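Cry2 kept its direction and its adjusted p under 0.05 for Hdac2 KO in Htt+/+ and in HttQ111/+ mice under every alternative run. Counts of clock genes called depended more on the covariates. For Hdac2 KO in Htt+/+ mice, with 2 genes called, the count was 5 with ID series in place of surrogate variables, 6 with only the libraries of the 2 groups, 6 with log2(Dbp/Arntl) as the covariate (an alternative chosen after seeing the data, which leaves Dbp and Arntl out) and 1 with all genes of at least 1 count. In HttQ111/+ mice, with 2 called, the count was 5 with only the libraries of the 2 groups and 1 without covariates, with sex, with extraction date, in males only, with all genes of at least 1 count, without ID series A and without the mice with 1 floxed allele, the last 2 also chosen after seeing the data. Without ID series A, 1 gene was called for HttQ111 in Hdac2 WT mice (Per1) and 1 for the average HttQ111 effect (Dbp), against 0. For the average Hdac2 KO effect, with 4 called, all genes of at least 1 count gave 1. With extraction date in place of surrogate variables 3 values that had been called changed sign: Arntl in Htt+/+ mice (0.16, adjusted p = 0.724, edgeR) and the average effects of Hdac2 KO on Arntl (0.35, adjusted p = 0.275) and Clock (0.019, adjusted p = 0.937). The cause was not tested. Leaving out 1 library at a time gave 1 to 3 calls in Htt+/+ and 1 to 2 in HttQ111/+ mice for Hdac2 KO, 2 to 4 for the average Hdac2 KO effect, and 0 for both HttQ111 contrasts, their average and the interaction. Of 1146 values of single clock genes over these fits, 1064 stayed on their side of the threshold with their direction where called, 51 gained a call, 28 lost one and 3 turned, and 159 values that were not called changed sign, among them Arntl in HttQ111/+ mice with extraction date (0.55, adjusted p = 0.154).

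The replicate numbers of the labels were not used to pair the mice in the main fit. Over 45 pairs of same-numbered libraries of different groups the correlation of deviations ran from -0.206 to 0.289 (median 0.0418), with 15 over 0.1. Pairs with different numbers had a median of -0.00981, and 8 of 33 libraries correlated best with their own number. Within each group the numbers run through ID series A, V and Z in that order. With the replicate number as a block beside the surrogate variables, 5 clock genes were called for Hdac2 KO in Htt+/+ mice (Clock, Cry2, Nr1d1, Per1 and Per2).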

Other observations

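Per1 stood in another relation to the rest of the loop in ID series A than in series V and Z. Its r with Arntl was 0.905 in series A (8 libraries), -0.491 in series V (16 libraries) and -0.534 in series Z (11 libraries), and its r with Cry2 was -0.493, 0.789 and 0.400. For Nr1d2 it was series V that stood apart. Its r with Dbp was 0.915 in series A and 0.951 in series Z but -0.019 in series V. With Cry1 its r was -0.591, 0.559 and -0.381 in series A, V and Z. With Per2 its r was positive in each series, at 0.415, 0.705 and 0.442. These values were picked after they were seen, the difference between series was not tested, and what the letter of the mouse ID stands for was not given in the sources used here.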
